A study of Mus musculus with 12 samples.

Results

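The genes described here are 48 mouse genes of cell division. They were taken by symbol from a list of proliferation genes that was drawn up with earlier results of these data known, though the rule itself uses no measured value. All 48 symbols were found among the 33924 genes listed for the RNase III set of libraries and among the 22609 listed for the knockout set. RNA from lung of B6 mice, 6 to 8 weeks old, had been sequenced 14 to 16 h after treatment with a house dust mite extract labelled D.f., with PBS as the control. The RNase III set has 6 libraries of wild-type mice. They were labelled PBS (n = 2), D.f. extract without RNase III (n = 2) and D.f. extract with RNase III (n = 2). RNase III is a nuclease of double-stranded RNA, and the labels do not say how or when it was applied. The knockout set has 6 libraries as well, whose lung came from wild-type mice given PBS (n = 1) or D.f. extract (n = 2) and from Tlr3 Mavs double knockout mice given PBS (n = 1) or D.f. extract (n = 2). No group received PBS with RNase III, and the labels do not say whether the replicates are separate animals, so p-values measure the spread between these libraries. Tlr3 is a receptor for double-stranded RNA in endosomes, and Mavs is the adaptor of the sensors of viral RNA in the cytosol.

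A cell that divides first loads the helicase made of Mcm2 to Mcm7 onto its DNA with the help of Cdc6, then copies the DNA in S phase, and condenses and separates the chromosomes in mitosis. The genes of S phase are driven by E2F factors and peak earlier in the cycle than the mitotic genes, which are driven by the MuvB complex together with Foxm1 and B-Myb. Most cells of an adult lung are at rest, and the dividing ones are mainly immune cells, endothelial cells and a few epithelial cells. Resting lymphocytes that are activated switch on the helicase genes before they enter mitosis. The 48 genes were read in 5 groups by role, which held 12 genes of replication and nucleotide supply, 10 cyclins, kinases and transcription factors, 12 genes of chromosome condensation, mitotic kinases and the spindle checkpoint, 8 of the spindle and kinetochore, and 6 of cytokinesis.

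The libraries held 17754518 to 25714074 reads on genes (RNase III set) or 15687699 to 20945618 (knockout set), and levels are given in CPM, a gene's reads scaled to a common library size. The labels of the knockout libraries were first checked by the deleted genes. Mavs stood at 37.0, 34.2 and 32.1 CPM in the 3 wild-type libraries of that set and at 3.08, 2.65 and 2.34 CPM in the 3 knockout libraries. Tlr3 stood at 43.1, 156 and 112 CPM against 10.5, 14.7 and 9.99 CPM in the same order, so both genes were lower in every library labelled knockout. A gene was tested where its mean over the 6 libraries of a set was at least 1 CPM, which held for 46 of the 48 genes (RNase III set) and for 45 (knockout set). Ccnb1, the cyclin that starts mitosis, stayed below that level at a mean of 0.644 CPM (RNase III set) and 0.412 CPM (knockout set), and Cdc25c, the phosphatase that activates Cdk1, at 0.295 and 0.261 CPM. The microtubule depolymerase Kif2c was below it only in the knockout set, at 0.811 CPM, where the checkpoint kinase Ttk was just above it at 1.05 CPM. In the knockout set 7 of the tested genes (Ccne1, Melk, Ncapg, Aurkb, Birc5, Ttk and Hmmr) were under 1 CPM in the wild-type PBS library and passed through other groups.

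Together the 48 division genes took 531 and 338 CPM in the 2 PBS libraries of the RNase III set and 286 CPM in the wild-type PBS library of the knockout set. Per kilobase of annotated exon, the most abundant in the PBS libraries of the RNase III set were Rrm1, the large subunit of ribonucleotide reductase, at 8.61 CPM per kb, and the helicase subunits Mcm4 and Mcm3 at 8.16 and 8.04 CPM per kb. The same 3 genes came first in the wild-type PBS library of the knockout set, at 7.95, 7.32 and 6.78 CPM per kb. Mki67, the proliferation marker that coats mitotic chromosomes, had the highest CPM in the RNase III set (50.6 CPM in PBS), but its exons span 10.1 kb and it ranked seventh per length at 5.02 CPM per kb. At the low end stood Cdc25c and Ccnb1, at 0.167 and 0.165 CPM per kb.

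The results turned on 6 genes that passed the test in at least 1 comparison within a set. The 250 bases before their RefSeq start (GRCm38.p6 table) are shown with elements known from promoters of S phase genes and of mitotic genes. Each stretch matched 1 place on its chromosome in build NCBIM37 (mm9), the build of the files. For Mcm2 this was chr6:88848775-88849024 on the minus strand, for Mcm5 chr8:77633158-77633407 on the plus strand, and for Mcm6 chr1:130256283-130256532 on the minus strand. For Top2a it was chr11:98885504-98885753 and for Mki67 chr7:142908063-142908312, both on the minus strand, and for Bub1b chr2:118423697-118423946 on the plus strand. All 6 lie upstream of the annotated gene, outside its exons. In the GENCODE M1 annotation the genes themselves span chr6:88833469-88848774 (Mcm2), chr8:77633427-77652338 (Mcm5), chr1:130228168-130256233 (Mcm6), chr11:98854257-98885503 (Top2a), chr7:142881471-142908062 (Mki67) and chr2:118423947-118467328 (Bub1b). Capitals mark exact matches on either strand to TTTGAA, the core of the cell cycle genes homology region bound by MuvB, to CCAAT, the NF-Y box, and to TTTGGCGC or TTTCGCGC, the E2F site.
Mcm2: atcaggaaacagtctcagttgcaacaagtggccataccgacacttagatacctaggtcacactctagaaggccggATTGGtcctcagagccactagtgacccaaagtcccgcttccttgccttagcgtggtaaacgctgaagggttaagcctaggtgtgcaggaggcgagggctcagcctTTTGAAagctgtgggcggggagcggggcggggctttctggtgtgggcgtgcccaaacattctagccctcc
Mcm5: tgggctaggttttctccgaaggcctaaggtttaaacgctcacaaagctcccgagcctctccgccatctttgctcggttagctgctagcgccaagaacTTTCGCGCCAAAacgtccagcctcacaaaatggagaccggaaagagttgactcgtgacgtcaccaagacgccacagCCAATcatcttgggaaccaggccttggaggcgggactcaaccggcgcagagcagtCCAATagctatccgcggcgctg
Mcm6: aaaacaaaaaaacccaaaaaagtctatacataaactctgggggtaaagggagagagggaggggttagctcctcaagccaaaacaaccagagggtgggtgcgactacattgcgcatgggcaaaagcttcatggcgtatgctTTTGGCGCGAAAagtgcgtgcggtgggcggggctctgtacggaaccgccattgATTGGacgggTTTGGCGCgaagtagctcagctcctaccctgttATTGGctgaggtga
Top2a: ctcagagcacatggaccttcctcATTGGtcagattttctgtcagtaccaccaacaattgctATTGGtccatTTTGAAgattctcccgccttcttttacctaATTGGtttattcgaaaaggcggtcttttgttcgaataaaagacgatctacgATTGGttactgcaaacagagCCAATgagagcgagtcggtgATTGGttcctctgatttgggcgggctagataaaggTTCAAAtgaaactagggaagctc
Mki67: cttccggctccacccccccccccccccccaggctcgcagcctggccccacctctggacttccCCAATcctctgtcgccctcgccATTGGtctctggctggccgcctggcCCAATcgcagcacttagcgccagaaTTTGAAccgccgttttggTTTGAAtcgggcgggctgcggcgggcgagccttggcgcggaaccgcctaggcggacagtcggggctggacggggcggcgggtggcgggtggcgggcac
Bub1b: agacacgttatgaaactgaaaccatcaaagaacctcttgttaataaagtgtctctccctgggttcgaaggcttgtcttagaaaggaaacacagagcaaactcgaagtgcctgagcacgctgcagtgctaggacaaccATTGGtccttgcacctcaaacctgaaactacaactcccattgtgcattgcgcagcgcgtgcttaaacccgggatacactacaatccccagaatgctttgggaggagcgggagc
In Mcm5 and in Mcm6 a TTTGGCGC and a TTTCGCGC match overlapped on opposite strands. The elements did not part the 6 genes by role, as Mcm2 held TTTGAA and no E2F spelling, and Bub1b held only CCAAT. The promoter table held 43 promoters of 40 of the 48 genes. CCAAT occurred in 34 of the 43 (79.1%), against 33.8% of all 32851 promoters in the table. TTTGAA occurred in 14 (32.6%) against 16% of all, and an E2F site of this spelling in 4 (9.3%) against 0.654%. Among the promoters of genes for chromosomes, spindle and cytokinesis, 10 of 25 (40%) held TTTGAA, and among the 6 promoters held for 5 helicase genes (Mcm2, Mcm3, Mcm5, Mcm6 and Mcm7) 1 (16.7%) did. The E2F spelling was found in 2 of these 6 promoters, those of Mcm5 and Mcm6, and in 1 of the 25 others. These matches describe letters in a window of fixed length and not bound sites.

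Among the 46 division genes tested in wild-type lung of the RNase III set, those called with extract were 3 subunits of the replicative helicase. No mitotic gene among the 46 was called. Of 32 further genes of mitosis, which are not among the 46, 2 were called higher with extract, Nek2 and Pttg1. Whether the roles differ in their response was not tested. Mcm6 rose 1.73-fold, Mcm5 1.52-fold and Mcm2 1.45-fold. These were the only called genes among the 46 tested, none fell, and the share called higher (6.52%) was about that of all 15491 genes tested (6.87%), with 0 called lower against 4.84% of all genes by edgeR. At an unadjusted p under 0.05 the counts were also 3 higher and 0 lower, against 13.7% and 13% of all genes, and DESeq2 called 3 and 0.

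Mcm6 stood at 27.9 and 29.7 CPM in the PBS libraries, 48.6 and 51.2 CPM in the extract libraries, and 33.7 and 37.7 CPM in the libraries with extract and RNase III. The extract libraries lay above all 4 others. The log2 fold change against PBS was 0.79 ± 0.12 (SE; adjusted p = 0.00853, edgeR quasi-likelihood test, 2 libraries a group). Mcm5 stood at 14.7 and 14.6 CPM with PBS, 22.7 and 21.8 CPM with extract, and 14.6 and 14.7 CPM with extract and RNase III. Here the libraries with RNase III lay on the level of PBS and only the extract libraries stood apart. Its log2 fold change was 0.60 ± 0.13 (adjusted p = 0.0299, edgeR). Mcm2 stood at 17.3 and 17.6 CPM with PBS, 27.0 and 23.5 CPM with extract, and 20.5 and 20.4 CPM with extract and RNase III, in the same order with no overlap. Its log2 fold change was 0.54 ± 0.13 (adjusted p = 0.0457, edgeR). In RNA of a whole tissue, a change in the number of dividing cells and a change in RNA per cell cannot be told apart.

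The other helicase subunits were close behind or flat. Mcm3 stood at 25.8 and 22.3 CPM with PBS and 33.8 and 26.2 CPM with extract, and Mcm4 at 30.1 and 28.4 CPM against 36.9 and 31.0 CPM. Neither passed the test, although the extract libraries of both lay above the PBS libraries. Mcm7, whose exons overlap those of Ap4m1 and Cops6 on the other strand, had a log2 fold change of -0.05 ± 0.18. Cdc6, which loads the helicase, stood at 3.87 and 2.40 CPM with PBS and 4.59 and 4.93 CPM with extract (log2 fold change 0.61 ± 0.30, adjusted p = 0.244, edgeR). Pcna, the sliding clamp of the polymerases, stood at 12.9 and 13.7 CPM against 17.6 and 16.0 CPM (0.34 ± 0.15, adjusted p = 0.206, edgeR). Of the 12 genes of replication and nucleotide supply, 9 had a positive log2 fold change, against 49% of all genes, and the median was 0.27, while over all genes tested the median was -0.01.

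**Figure D1:**
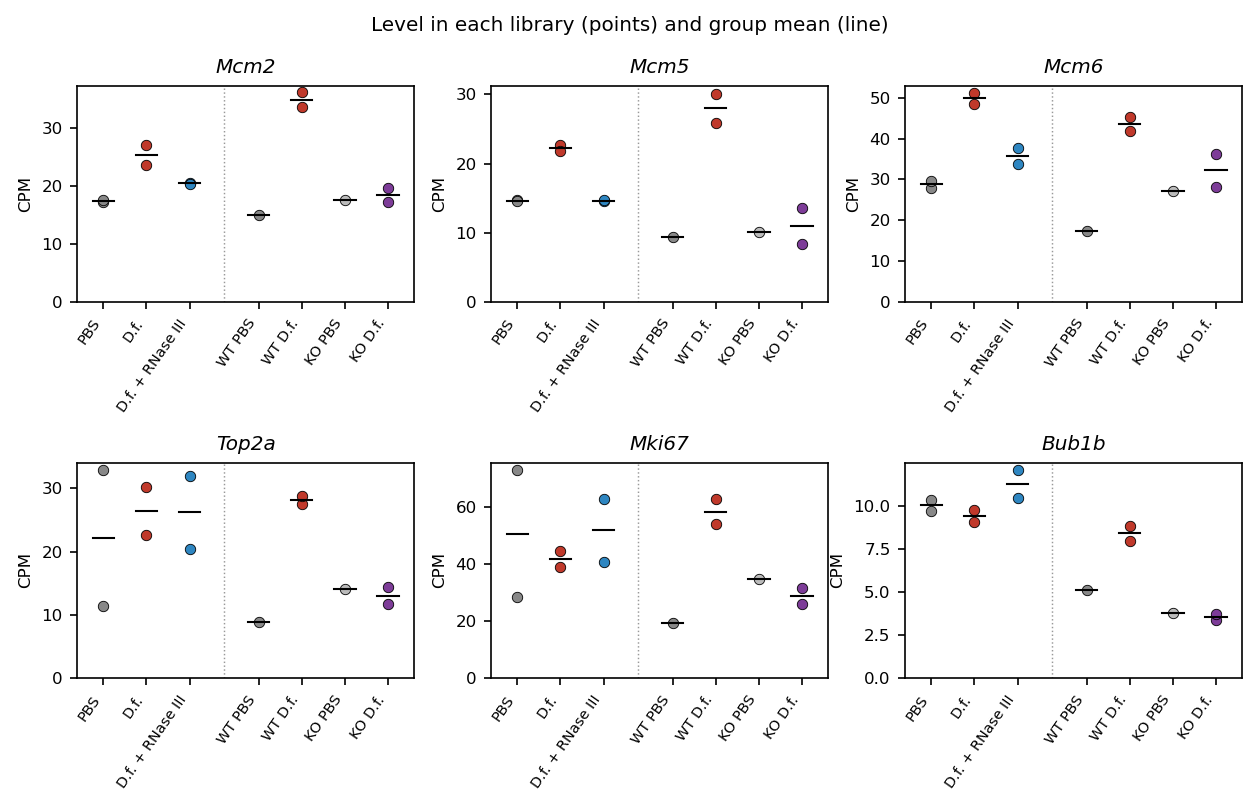
CPM of 6 division genes in each library (points) with group means (lines), the RNase III set left and the knockout set right of the dotted line. With extract, Mcm5 lay at 22.7 and 21.8 CPM (RNase III set) and at 30.1 and 25.9 CPM (wild type, knockout set), above every library of the other groups, whereas the PBS libraries of the RNase III set spread from 28.5 to 72.8 CPM for Mki67.

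These calls rested on few libraries. Mcm6 lost its call without extract replicate 4 (adjusted p = 0.0731, edgeR, over a range of 0.00709 to 0.0731 for the 6 fits that left out 1 library). Mcm5 lost it without extract replicate 3 (0.143) or 4 (0.129) and without RNase III replicate 5 (0.0981) or 6 (0.104), and Mcm2 kept it only without PBS replicate 2 (0.0486, edgeR), with adjusted p of 0.0561 to 0.224 in the other 5 fits. In all of these fits the log2 fold changes stayed positive, at 0.75 to 0.84 for Mcm6, 0.56 to 0.63 for Mcm5 and 0.42 to 0.63 for Mcm2. Among 5 other settings of the fit, Mcm2 missed the threshold without a filter on low counts (0.0562, range over the settings 0.0244 to 0.0562) and Mcm5 in a fit over all 12 libraries (0.0823, range 0.0136 to 0.0823, edgeR and DESeq2).

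In the genes of mitosis the 2 PBS libraries differed from each other. Mki67 stood at 72.8 and 28.5 CPM with PBS, 38.9 and 44.6 CPM with extract, and 62.8 and 40.7 CPM with extract and RNase III. Top2a, the topoisomerase that untangles sister chromosomes, stood at 32.9 and 11.4 CPM, 22.7 and 30.2 CPM, and 31.9 and 20.4 CPM in that order. For both genes the PBS libraries held the lowest value and the highest, and all groups overlapped. PBS replicate 1 exceeded replicate 2 in all 26 genes of chromosomes, spindle and cytokinesis, with a median ratio of 2.21 and a range from 1.07 for the checkpoint kinase Bub1b to 9.29 for Kif2c. Over all 46 tested genes it did so in 42, against 50.8% of all genes tested, and by at least 1.5 times in 32, against 9.72%. The 12 replication genes differed less, with a median ratio of 1.08 and 2 genes at 1.5 times or more, led by Rrm2 at 2.60. The lowest ratio among them was 0.941 for Mcm6.

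For the genes with the smallest p in these groups, Bub1, a checkpoint kinase, stood at 5.25 and 3.35 CPM with PBS and 2.69 and 3.62 CPM with extract (log2 fold change -0.44 ± 0.32, adjusted p = 0.425, edgeR). The condensin subunit Ncapd2 stood at 22.2 and 12.2 CPM against 13.2 and 14.4 CPM, and Kif20a, a kinesin of cytokinesis, at 4.15 and 1.63 CPM against 2.02 and 2.05 CPM. In all 3 the highest library was PBS replicate 1 and the groups overlapped.

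Against that spread, none of the 26 genes of chromosomes, spindle and cytokinesis was called or had an unadjusted p under 0.05, and none had extract libraries wholly above or below the PBS libraries. Their median log2 fold change was -0.15, with 5 of 26 positive, and the range ran from -0.57 for the contractile ring scaffold Anln to 0.77 for Cenpe, a kinesin of the kinetochore. Anln stood at 13.1 and 7.01 CPM with PBS and 5.50 and 7.98 CPM with extract, and Cenpe at 7.74 and 3.08 CPM against 6.68 and 11.7 CPM. Over all 46 genes, 18 had a positive log2 fold change against 49% of all genes tested. The extract libraries lay wholly above PBS in 9 genes and wholly below in 2, against 26.1% and 25.6% of all genes. The median over the 46 genes was -0.07 and moved to 0.54 without PBS replicate 1, with 5 genes called higher, and to -0.44 without PBS replicate 2, with 6 called lower. Its sign thus differed with the PBS library left out.

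Among the cyclins, kinases and transcription factors, Ccne1, the cyclin of the entry into S phase, stood at 1.60 and 1.31 CPM with PBS and 1.90 and 2.53 CPM with extract (log2 fold change 0.60 ± 0.36, adjusted p = 0.337, edgeR). E2f1, the activator of S phase genes, stood at 11.3 and 10.1 CPM against 8.38 and 8.46 CPM (-0.35 ± 0.17, adjusted p = 0.248, edgeR). They were the 2 of this group whose libraries did not overlap, in opposite directions. Cdk1, the kinase of mitosis, stood at 5.31 and 2.58 CPM against 3.87 and 4.62 CPM, and Rrm2, the small subunit of ribonucleotide reductase, at 7.41 and 2.85 CPM against 5.50 and 6.28 CPM. In both, the extract libraries lay between the PBS libraries.

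**Figure D2:**
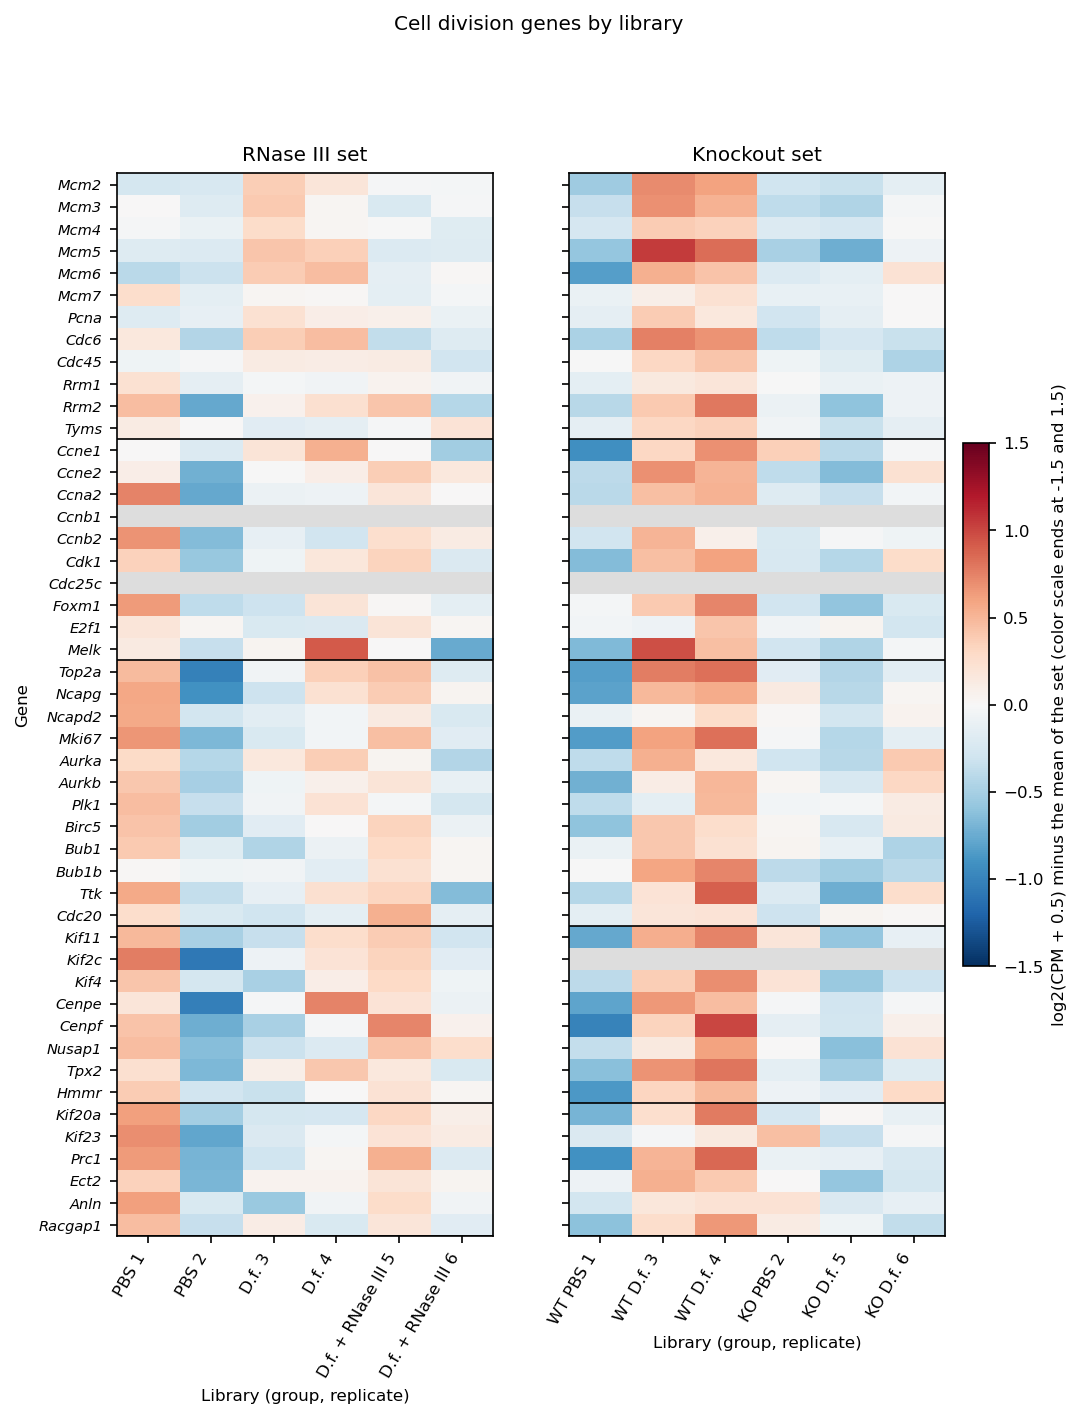
log2(CPM + 0.5) of each gene minus its mean over the 6 libraries of the set (colour), by library, with lines between the 5 role groups, the replication genes on top, and grey for genes below 1 CPM. Extract libraries of wild-type mice were high for Mcm5 and Mcm6 in both sets, PBS replicate 1 of the RNase III set was high for most mitotic genes, and both wild-type extract libraries of the knockout set were high in nearly every row.

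With extract and RNase III, the helicase genes were lower than with extract alone. Most mitotic genes leaned the other way without a call, and in their median this lean rested on replicate 5 with RNase III. The libraries with extract alone are those compared with PBS above, so these comparisons are not independent. Mcm5 fell by 0.60 ± 0.13 on the log2 scale (1.52-fold, adjusted p = 0.038, edgeR), back to the PBS values given above. It was the only called gene of 46, and 2.17% called lower compares with 5.35% of all genes tested and 0 called higher with 2.65%. At an unadjusted p under 0.05 there were 3 lower and 0 higher, against 12.4% and 10.8% of all genes, and DESeq2 called 2 lower and 0 higher. Mcm6 had a log2 fold change of -0.48 ± 0.12 (adjusted p = 0.0587, edgeR) and Cdc6, at 2.53 and 2.94 CPM with RNase III, one of -0.80 ± 0.30 (adjusted p = 0.169, edgeR). In all 6 helicase genes both libraries with RNase III lay below both extract libraries, as in 31.2% of all genes tested, and the median log2 fold change of the 6 was -0.33. The call of Mcm5 was lost without either extract library (adjusted p = 0.171 without replicate 3 and 0.163 without replicate 4) or either library with RNase III (0.337 without replicate 5 and 0.253 without replicate 6, edgeR), and Mcm5 also missed the threshold in the fit over all 12 libraries (0.101, range over 5 settings 0.0175 to 0.101). The number of genes called lower was 3 without PBS replicate 1 or 2.

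Of the 26 genes of chromosomes, spindle and cytokinesis, 20 had a positive log2 fold change with RNase III against extract alone. Their median was 0.26 and none was called or had an unadjusted p under 0.05. By library, their median relative to the set mean was 0.30 in RNase III replicate 5 and -0.10 in replicate 6. The extract libraries lay at -0.19 and 0.02 on this log2 scale. Over all 46 genes 27 were positive, against 49.7% of all genes tested. Their median log2 fold change was 0.06, and it was -0.12 without RNase III replicate 5 and 0.28 without replicate 6. The largest were the microtubule proteins Nusap1, at 4.74 and 4.17 CPM against 2.61 and 2.88 CPM (0.70 ± 0.41, adjusted p = 0.371, edgeR), and Cenpf, at 15.1 and 9.30 CPM against 6.21 and 8.81 CPM (0.70 ± 0.43, adjusted p = 0.389, edgeR). Both libraries with RNase III lay above both extract libraries in 14 of the 46 genes and below them in 11, against 30.6% and 31.2% of all genes tested. The share above (30.4%) was thus about that of all genes, and the share below (23.9%) was smaller. Melk, a kinase of mitosis, stood at 1.98 and 0.962 CPM with RNase III and 2.06 and 4.19 CPM with extract alone (-1.08 ± 0.50, adjusted p = 0.255, edgeR), the lowest log2 fold change of the 46. Bub1 stood at 4.90 and 3.95 CPM with RNase III, above its extract values (0.49 ± 0.32, adjusted p = 0.414, edgeR), and Cdc20, the activator of the anaphase ligase, at 4.57 and 2.67 CPM against 2.33 and 2.66 CPM (0.54 ± 0.35, adjusted p = 0.426). E2f1 stood at 11.4 and 10.2 CPM, above both extract libraries and level with PBS.

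Between extract with RNase III and PBS, no division gene was called in either direction by edgeR or DESeq2, and over all genes 0.00646% were called higher and 0% lower. Mcm6 was the 1 gene of 46 with an unadjusted p under 0.05 and higher, against 2.48% of all genes, and 0 were lower, against 2.35%. Its log2 fold change was 0.31 ± 0.12 (adjusted p = 0.957, edgeR), and its libraries with RNase III lay above both PBS libraries. Mcm5 had a log2 fold change of 0.00 ± 0.13, and Mcm2 one of 0.23 ± 0.14 (adjusted p = 0.957, edgeR). Of the 46 genes, 30 had a positive log2 fold change against 47.3% of all genes, with a median of 0.03. That median was 0.43 when PBS replicate 1 was left out and -0.33 when replicate 2 was.

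Several lists of immune cell markers had the order of the helicase genes, while alveolar macrophage markers were lower with extract than with PBS. In the RNase III set 6 of 9 NK cell markers and 3 of 8 T cell markers rose with extract, against 6.87% of all genes, and 7 and 5 fell with RNase III, against 5.35%. The summed T cell markers ran from 31.4 to 42.1 CPM with PBS, 67.1 to 71.6 CPM with extract and 28.2 to 31.6 CPM with extract and RNase III, and those of NK cells from 27.5 to 39.3 CPM, 101 to 108 CPM and 31.0 to 32.5 CPM. Markers of monocytes and macrophages rose in 5 of 8 with extract, and their sum was 256 to 268 CPM with PBS, 603 to 620 CPM with extract and 295 to 317 CPM with RNase III. In each of these 3 lists the extract libraries stood apart, as for Mcm5. Alveolar macrophage markers went the other way, with 4 of 8 called lower with extract, against 4.84% of all genes, and 2 of 8 called higher with RNase III, against 2.65%. Their sum was 882 to 934 CPM with PBS, 273 to 514 CPM with extract and 509 to 597 CPM with extract and RNase III. The extract groups with and without RNase III thus overlapped, both below PBS. The sums of B cell, neutrophil and plasma cell markers were also highest in the extract libraries. Those of endothelium were lowest there, at 2677 to 3473 CPM, against 3737 to 4395 CPM with PBS and 3621 to 3822 CPM with RNase III. No marker of these lists that was among the listed genes was at 0 in all 6 libraries of a set. The part of these cells in the levels of the division genes was not tested.

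In the knockout set, extract was followed in wild-type lung by higher levels across all roles. All 45 tested genes had a positive log2 fold change, against 46.9% of all 14107 genes tested. The median was 1.14, against -0.02 for all genes. For Ccne1, Melk, Ncapg, Aurkb, Birc5, Ttk and Hmmr, under 1 CPM in the PBS library, the filter itself favoured a positive value. Calls by edgeR were 3 higher (6.67%, against 1.27% of all genes) and 0 lower (against 0.128%). At an unadjusted p under 0.05 there were 28 higher and 0 lower, against 10% and 7.77% of all genes, and DESeq2 called 9 higher and 0 lower. This comparison had 1 PBS library, whose variance was taken to equal that of the groups with replicates. The genes are not separate observations, as they can move together between libraries of 1 group. In the RNase III set, PBS replicate 1 exceeded replicate 2 in 42 of 46 genes.

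Top2a stood at 8.86 CPM with PBS and 27.6 and 28.8 CPM with extract, a 3.18-fold rise (log2 fold change 1.67 ± 0.19, adjusted p = 0.0358, edgeR). Mki67 stood at 19.4 CPM with PBS and 53.8 and 62.6 CPM with extract, a 3.0-fold rise (1.58 ± 0.19, adjusted p = 0.0358, edgeR). Mcm2 stood at 14.9 CPM with PBS and 36.1 and 33.5 CPM with extract, a 2.34-fold rise (1.23 ± 0.16, adjusted p = 0.0413, edgeR). For all 3 the PBS library was the lowest of the 6 libraries in the set. Next by adjusted p were Mcm6, at 17.4 CPM against 45.3 and 42.0 CPM (1.32 ± 0.19, adjusted p = 0.0523, edgeR), and the spindle midzone protein Prc1, at 2.08 CPM against 6.44 and 8.30 CPM (1.82 ± 0.30, adjusted p = 0.0703, edgeR). Cenpe stood at 3.30 CPM against 9.78 and 8.54 CPM (1.47 ± 0.26, adjusted p = 0.077, edgeR), and Mcm5 at 9.38 CPM against 30.1 and 25.9 CPM (1.58 ± 0.32, adjusted p = 0.102, edgeR).

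By role, the median log2 fold change was 0.80 for replication and nucleotide supply, 1.09 for cyclins, kinases and transcription factors, 1.15 for condensation, mitotic kinases and the checkpoint, 1.53 for spindle and kinetochore, and 0.89 for cytokinesis. The lowest value was 0.25 ± 0.29 for E2f1 and the highest 2.24 ± 0.55 for Ccne1, which stood at 0.405 CPM with PBS and 1.62 and 2.27 CPM with extract. Cdk1 stood at 1.39 CPM against 3.54 and 4.0 CPM and Rrm2 at 2.61 CPM against 4.92 and 6.63 CPM, neither called. Racgap1, a regulator of cytokinesis, stood at 3.07 CPM against 6.05 and 8.06 CPM (1.20 ± 0.32, adjusted p = 0.158, edgeR), and the kinase Melk at 0.753 CPM against 3.39 and 2.21 CPM (1.89 ± 0.51, adjusted p = 0.162). All 3 calls were lost without wild-type extract replicate 3 (adjusted p = 0.269 to 0.380, edgeR) or replicate 4 (0.189 to 0.234), with 0 genes called. Without knockout extract replicate 5 or 6, 27 genes were called higher. In the fit over all 12 libraries Mki67 (adjusted p = 0.16, range over 5 settings 6.16e-08 to 0.16) and Top2a (0.194, range 3.94e-06 to 0.194) missed the threshold.

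In knockout lung with extract these genes stood lower than in wild-type lung with extract. All 45 had a negative log2 fold change, against 49.2% of all genes tested, with a median of -0.74. Ttk reached 1 CPM only in the wild-type extract group, at 1.69 CPM, so the filter favoured its negative value. The wild-type extract libraries are those compared with PBS above, so these comparisons are not independent. Both knockout libraries lay below both wild-type libraries in 37 of the 45 (82.2%, against 25.7% of all genes) and above them in 0 (against 25%). Here too the genes can move together and are not separate observations of these libraries. Calls by edgeR were 4 lower (8.89%, against 1.94% of all genes) and 0 higher (against 0.496%). At an unadjusted p under 0.05 there were 28 lower and 0 higher, against 10.4% and 8% of all genes, and DESeq2 called 6 lower and 0 higher.

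Bub1b, which holds cells in mitosis until all chromosomes are attached, stood at 7.96 and 8.84 CPM in wild-type and 3.39 and 3.73 CPM in knockout lung, 2.35-fold lower (log2 fold change -1.24 ± 0.19, adjusted p = 0.0433, edgeR). Bub1b was lower in the knockout with PBS as well, at 3.77 CPM against 5.10 CPM in wild type, with 1 library each. Top2a stood at 27.6 and 28.8 CPM against 11.7 and 14.4 CPM, 2.16-fold lower (-1.11 ± 0.15, adjusted p = 0.0319, edgeR). Mki67 stood at 53.8 and 62.6 CPM against 26.0 and 31.7 CPM, 2.02-fold lower (-1.01 ± 0.14, adjusted p = 0.0358, edgeR). The groups of these 3 genes did not overlap. Mcm2 stood at 36.1 and 33.5 CPM against 17.2 and 19.7 CPM, 1.89-fold lower (-0.92 ± 0.12, adjusted p = 0.0324, edgeR). Mcm5 had the largest difference, 30.1 and 25.9 CPM against 8.43 and 13.6 CPM (-1.35 ± 0.25), and missed the threshold at an adjusted p of 0.0663 (edgeR). Its knockout libraries lay further apart than those of Mcm2. All 12 genes of replication and nucleotide supply had knockout libraries below the wild-type ones, with a median of -0.69.

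Among the other roles, the transcription factor Foxm1 stood at 8.16 and 10.5 CPM against 3.87 and 5.12 CPM (-1.04 ± 0.23, adjusted p = 0.0954, edgeR), and the spindle assembly factor Tpx2 at 7.03 and 7.71 CPM against 2.81 and 3.63 CPM (-1.19 ± 0.22, adjusted p = 0.0682, edgeR). Ect2, which places the division furrow, stood at 8.55 and 7.71 CPM against 3.71 and 4.72 CPM (-0.95 ± 0.20, adjusted p = 0.0918, edgeR). None of the 3 overlapped between genotypes and none was called. Cyclin A2 (Ccna2), of S phase and early mitosis, stood at 6.98 and 7.35 CPM against 3.82 and 4.82 CPM (-0.73 ± 0.20, adjusted p = 0.151, edgeR), and the chromosome kinesin Kif4 at 4.38 and 5.61 CPM against 2.07 and 2.53 CPM (-1.11 ± 0.25, adjusted p = 0.102). Cdk1 stood at 3.54 and 4.0 CPM against 1.70 and 3.08 CPM, Rrm2 at 4.92 and 6.63 CPM against 2.23 and 3.43 CPM, and neither overlapped. The smallest difference was that of the mitotic kinase Plk1, at 2.06 and 3.46 CPM against 2.28 and 2.58 CPM (-0.17 ± 0.33). The 4 calls were lost without wild-type extract replicate 3 (adjusted p = 0.285 to 0.390, edgeR) or replicate 4 (0.253 to 0.372), with 0 genes called lower, while 17 were called lower without knockout extract replicate 5 and 26 without replicate 6. The median stayed between -0.91 and -0.59 in these fits. In the fit over all 12 libraries Mki67 (adjusted p = 0.226) and Top2a (0.237) missed the threshold, with ranges over 5 settings of 4.67e-05 to 0.226 and 0.000241 to 0.237 (edgeR and DESeq2).

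In the same libraries the summed T cell markers were 40.8 to 43.8 CPM in wild-type and 19.5 to 23.7 CPM in knockout lung with extract, with 19.7 and 28.4 CPM in the wild-type and knockout PBS libraries. Of 7 tested T cell markers 1 was called lower in knockout lung, against 1.94% of all genes, and all were negative, against 49.2%. The NK cell markers summed to 49.3 to 51.7 CPM and 18.0 to 32.4 CPM with extract, and to 16.4 and 57.2 CPM with PBS, and all 9 had a negative log2 fold change in knockout against wild type with extract. With extract, markers of monocytes and macrophages summed to 403 to 442 CPM in wild-type and 326 to 465 CPM in knockout lung, which overlapped. Alveolar macrophage markers summed to 425 to 433 CPM and 563 to 670 CPM, the opposite order to the division genes. The part of these cells in the difference between genotypes was not tested.

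Knockout lung with extract did not differ by a call from knockout lung with PBS, in either direction, by edgeR or DESeq2, and 0% of all genes were called in this comparison. Of the 45 division genes, 21 had a positive log2 fold change against 51.1% of all genes, and the median was -0.08. The kinesin Kif23, at 8.49 CPM with PBS and 4.67 and 6.01 CPM with extract, was the 1 gene with an unadjusted p under 0.05 and lower, against 2.13% of all genes, and 0 were higher, against 3.44% (log2 fold change -0.67 ± 0.25, adjusted p = 0.817, edgeR). The helicase genes had log2 fold changes of 0.07 to 0.25, the last for Mcm6 at 27.1 CPM with PBS and 28.1 and 36.3 CPM with extract. Top2a stood at 14.2 CPM against 11.7 and 14.4 CPM and Mki67 at 34.8 CPM against 26.0 and 31.7 CPM, the PBS library lying between or above the extract libraries. Without knockout extract replicate 5 the median was 0.07, with 1 gene called higher, and without replicate 6 it was -0.24.

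The 2 PBS libraries of the knockout set were not alike. The knockout PBS library stood above the wild-type PBS library in 37 of the 45 genes, against 49.3% of all genes tested, with a median ratio of 1.30. The ratio ran from 0.741 for Bub1b to 4.19 for Ccne1, and its median was 1.60 over the genes of chromosomes, spindle and cytokinesis and 1.06 over the replication genes. With 1 library a group this difference has no replicate check. Mki67 stood at 19.4 CPM in the wild-type and 34.8 CPM in the knockout PBS library, and Mcm5 at 9.38 and 10.1 CPM.

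The difference between the genotypes in the response to extract was tested as an interaction. It uses the libraries of the comparisons above and is no independent check of them. No gene was called by edgeR, among the division genes or over all genes (0% in either direction), while DESeq2 called 2 division genes lower and 0 higher, Mki67 and Top2a. At an unadjusted p under 0.05 there were 23 of the 45 lower and 0 higher, against 5.65% and 4.3% of all genes. The log2 interaction was negative in 44 of the 45, against 48.2% of all genes, with a median of -1.07. Mki67 had -1.85 ± 0.25 (adjusted p = 0.167, edgeR) and Top2a -1.79 ± 0.26 (adjusted p = 0.173, edgeR), and Mcm2 had -1.16 ± 0.21 (adjusted p = 0.21, edgeR). The spindle motor Kif11, at 2.14 CPM with PBS and 6.05 and 7.05 CPM with extract in wild type and at 4.59 CPM and 2.49 and 3.63 CPM in the knockout, had -2.19 ± 0.47 (adjusted p = 0.25). For Kif11, as for Mki67 and Top2a, the knockout PBS library, which enters the interaction, lay above the wild-type one. The DESeq2 adjusted p was 5.36e-05 for Mki67 and 0.00396 for Top2a. Without knockout extract replicate 5, 13 genes were called lower and without replicate 6, 20.

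**Figure D3:**
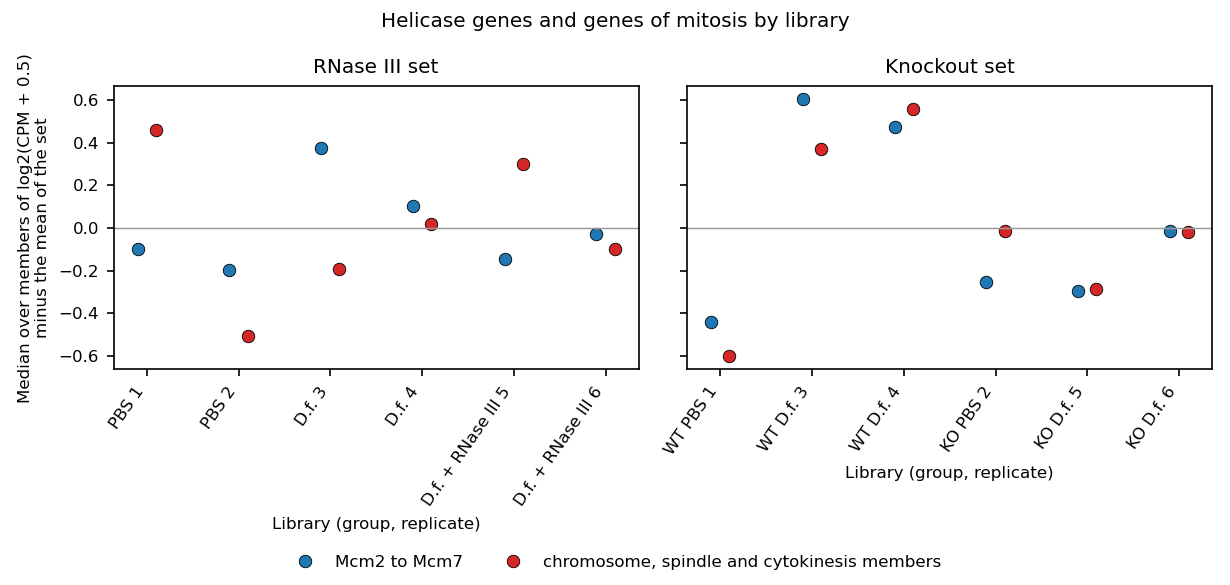
Median over the 6 helicase genes (blue) and over the tested genes of chromosomes, spindle and cytokinesis (red) of log2(CPM + 0.5) minus each gene's mean over the set, by library. In the RNase III set the mitotic median ran from -0.51 in PBS replicate 2 to 0.46 in PBS replicate 1, with the extract libraries at -0.19 and 0.02, whereas the helicase median was 0.38 and 0.11 with extract and at most -0.03 in the other 4 libraries.

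Over the 7 wild-type libraries without RNase III of both sets, 3 with PBS and 4 with extract, the fit with the set as a term called the same 3 helicase genes as in the RNase III set. Mcm6 rose 2.00-fold (log2 fold change 1.00 ± 0.13, adjusted p = 0.00236, edgeR), Mcm5 1.95-fold (0.97 ± 0.21, adjusted p = 0.0195) and Mcm2 1.75-fold (0.81 ± 0.16, adjusted p = 0.0151). Without the set term Mcm6 missed the threshold (adjusted p = 0.0678, range over 5 settings 3.62e-09 to 0.0678). For each, the 4 extract libraries lay above the 3 PBS libraries. These libraries are those already described, so the fit is no independent check. Calls were 3 higher (6.52%, below the 9.45% of all 14152 genes tested) and 0 lower (against 6.19%), the counts at an unadjusted p under 0.05 were 11 higher and 0 lower, against 15.9% and 15.1%, and DESeq2 called 7 higher and 0 lower. All extract libraries lay above all PBS libraries in 7 of the 46 genes (15.2%, against 11.5% of all genes), 5 of them helicase genes and the other two Cdc6 and Cdc45, which joins the helicase when replication starts. None lay wholly below, against 8.37% of all genes.

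A positive log2 fold change was found in 40 of the 46 genes, against 48.3%, with a median of 0.37. Without the wild-type PBS library of the knockout set the median was -0.08, and without PBS replicate 1 of the RNase III set it was 0.86 with 17 genes called higher. Without extract replicate 3 of the RNase III set 1 gene was called, as Mcm5 (adjusted p = 0.0524, edgeR) and Mcm2 (0.058) missed the threshold. The replication genes were all positive with a median of 0.46, and Mki67 had 0.39 ± 0.46 and Top2a 0.77 ± 0.42 (adjusted p = 0.608 and 0.26, edgeR).

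The sets share no library, so their values can be set side by side. For extract against PBS, 9 of the 12 replication genes had a positive log2 fold change in both sets, among them 5 of the 6 helicase genes. Of the 25 genes of chromosomes, spindle and cytokinesis tested in both, 5 did so, and the other 20 had a negative value in the RNase III set and a positive one in the knockout set. Over all genes tested in both, 34.0% were positive in both. Since all 45 genes were positive in the knockout set, these counts equal the counts of positive genes in the RNase III set. For RNase III against extract alone and for knockout against wild type with extract, 10 of the 12 replication genes, with all 6 helicase genes, were negative in both, and 6 of the 25 mitotic genes were, against 31.8% of all genes. Mcm5 had -0.60 ± 0.13 with RNase III and -1.35 ± 0.25 with the knockout, and Mki67 had 0.31 ± 0.41 and -1.01 ± 0.14. Whether the response of a gene differs between the sets was not tested.

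**Figure D4:**
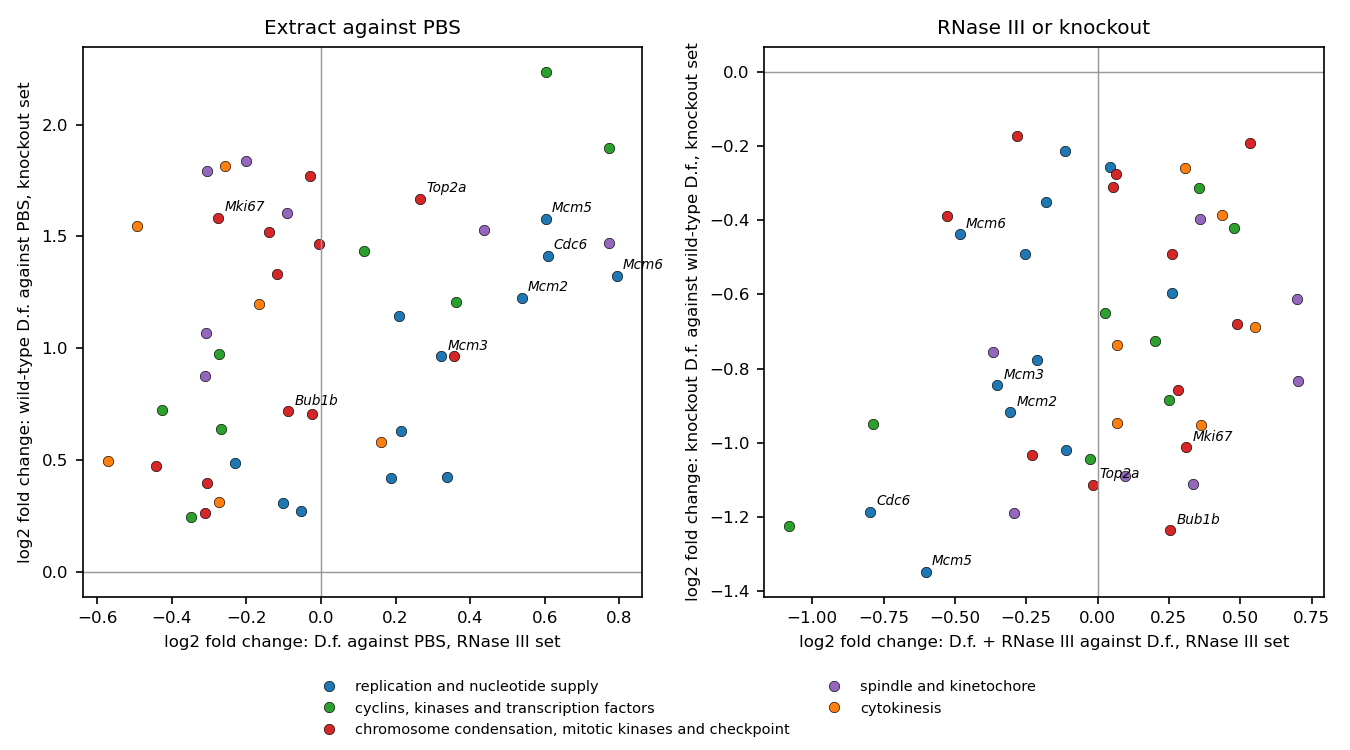
Each point is a division gene tested in both sets, coloured by role, with log2 fold changes of the RNase III set on the x axis and of the knockout set on the y axis, for extract against PBS (left) and for RNase III or knockout against extract in wild type (right). Every gene is above 0 on the left y axis and below 0 on the right one, and the replication genes lie mostly right of 0 on the left and left of 0 on the right, Mcm5 at 0.60 and -0.60.

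Other genes of the cell cycle were read from 5 lists, on which only the RNase III set and the 7 pooled libraries gave calls. Of 28 further replication genes, 24 had a positive log2 fold change with extract in the RNase III set (median 0.38) and 23 a negative one with RNase III (median -0.31), with 0 called by edgeR. Before adjustment 3 had a p under 0.05 and were higher with extract (13.7% of all genes) and 4 lower with RNase III (12.4% of all genes), which is near those shares. In the knockout set 27 of the 28 were positive with extract in wild type (median 0.92) and 26 negative in knockout against wild type (median -0.70), again with 0 called by edgeR. Before adjustment 22 and 21 had a p under 0.05, against 10% and 10.4% of all genes. In the pooled fit 5 of the 28 rose, against 9.45% of all genes, namely the thymidine kinase Tk1 (0.82 ± 0.18, adjusted p = 0.0225, edgeR), the clamp loader subunits Rfc5 and Rfc3, the flap nuclease Fen1 and the histone chaperone Chaf1a. The 32 further genes of mitosis had a median of -0.08 with extract and 0.11 with RNase III, and in the knockout set 30 of them had medians of 0.63 and -0.58.

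Of those 32 mitotic genes 2 rose with extract in the RNase III set, a share (6.25%) about that of all genes (6.87%). Nek2, a kinase of centrosome separation, stood at 7.74 and 7.78 CPM with PBS, 15.0 and 19.0 CPM with extract, and 9.42 and 8.50 CPM with extract and RNase III. The extract libraries stood apart from the other 4, with a log2 fold change of 1.13 ± 0.18 (adjusted p = 0.0103, edgeR) and one of -0.92 ± 0.18 with RNase III (adjusted p = 0.0276). Pttg1, the securin that guards sister chromosomes, rose by 1.02 ± 0.22 (adjusted p = 0.0267, edgeR).

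Upstream of replication, Ccnd2, a D-type cyclin of the entry into the cycle, stood at 234 and 245 CPM with PBS, 460 and 463 CPM with extract, and 245 and 249 CPM with extract and RNase III. It rose by 0.95 ± 0.12 with extract (adjusted p = 0.00375, edgeR) and fell by 0.90 ± 0.12 with RNase III (adjusted p = 0.00624). In the knockout set Ccnd2 stood at 303 CPM with PBS and 517 and 456 CPM with extract in wild type, and at 249 CPM and 292 and 226 CPM in the knockout. The wild-type extract libraries were again the highest, but the difference from the knockout missed the threshold (-0.91 ± 0.15, adjusted p = 0.0535, edgeR). Rbl1, a pocket protein that restrains E2F targets, rose by 1.00 ± 0.19 (adjusted p = 0.019, edgeR), from 32.0 and 23.5 CPM to 48.1 and 62.4 CPM. Lin9, a subunit of MuvB, rose by 1.20 ± 0.25 (adjusted p = 0.0246, edgeR), from 3.26 and 2.76 CPM to 6.76 and 7.06 CPM. The inhibitor Cdkn1a rose as well, by 0.86 ± 0.22 (adjusted p = 0.0473, edgeR), and Cdc25b, a phosphatase that activates Cdk1, fell by 0.57 ± 0.13 (adjusted p = 0.0357).

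With RNase III against extract alone, Cdkn1a fell by 1.02 ± 0.22 (adjusted p = 0.0362, edgeR), Myc by 1.11 ± 0.24 (adjusted p = 0.0348) and the D-type cyclin Ccnd3 by 0.48 ± 0.11 (adjusted p = 0.0475). Cdkn1a did not follow the helicase genes in the knockout set, where it stood at 108 and 89.6 CPM in wild-type and 156 and 175 CPM in knockout lung with extract. Its knockout libraries were thus above the wild-type ones, while those of all 45 division genes had lower fitted levels. Myc stood at 33.2 and 31.8 CPM in wild-type and 36.5 and 38.0 CPM in knockout lung with extract, also higher in the knockout. Its wild-type PBS library was at 48.7 CPM. Pttg1 was higher there as well, at 19.4 and 16.9 CPM against 22.6 and 19.7 CPM. Lin9 overlapped, at 7.67 and 7.77 CPM against 5.25 and 9.0 CPM. Ccnd3, Nek2 and Rbl1 were lower in both knockout libraries. Counted by list in the RNase III set with extract, 1 of 10 G1 cyclins and kinases rose and 1 fell, 2 of 9 Cdk inhibitors and pocket proteins rose, and 1 of 12 E2F and MYB factors rose. Over all genes 6.87% rose and 4.84% fell, and counts this small are not read as a difference from that.

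Other sources of dividing cells were checked by their markers. The 8 thymocyte markers, of which Cd4 and Cd8b1 are also T cell genes, summed to 19.0 to 26.5 CPM with PBS, 33.6 to 34.9 CPM with extract and 19.3 to 27.4 CPM with extract and RNase III, the order of the helicase genes. With extract the sum in the knockout set was 24.5 to 25.1 CPM in wild-type and 12.8 to 15.7 CPM in knockout lung, beside 17.5 and 20.8 CPM with PBS. Of the 4 that could be tested, all had extract libraries wholly above PBS (median log2 fold change 0.65), as in 26.1% of all genes, with 0 called by edgeR and 2 at an unadjusted p under 0.05. With RNase III all 4 lay wholly lower (median -0.85), as in 31.2% of all genes, and 2 were called lower, against 5.35%. Of the defining thymocyte genes, Rag2 had at most 3 reads and Ptcra at most 2 in any library. Rag1 had at most 81 reads, or 4.46 CPM, and Dntt at most 17, or 0.936 CPM. In the RNase III set the highest levels of Rag1, Rag2 and Dntt were those of the library with RNase III replicate 5. Of the red cell precursor genes, Klf1 had at most 3 reads and Gata1 at most 12, while Alas2, which maturing red cells also hold, reached 72.2 CPM (RNase III set) and 127 CPM (knockout set). Heart muscle markers differed between libraries of 1 group, from 189 to 1434 CPM summed with PBS and from 531 to 1095 CPM with extract in the RNase III set, and were 224 to 248 CPM with RNase III. By genotype in the knockout set their values were 878 CPM with PBS and 467 to 695 CPM with extract in wild type and 153 CPM and 132 to 194 CPM in the knockout. Airway markers of club and ciliated cells summed to 12954 to 27285 CPM (RNase III set) and 1241 to 1923 CPM (knockout set), and levels were not compared between the sets. Whether these differences bear on the division genes was not tested.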

How the data were processed

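RNA of mouse lung was sequenced as 100-base single-end reads from total RNA libraries, per the labels' protocols. The deposited files hold raw counts of reads per gene for each library, made by the authors with TopHat2 2.0.8b on mm9 and HTSeq, per the submitters' processing notes. No source used here gives the annotation or strand setting, and 12 of the 48 genes overlap another annotated gene, so reads there can be split. Rows that name no gene were left out of library sizes and tests, and 27.0% to 40.0% of the tallied alignments had no feature and 36.8% to 44.6% were not unique. Libraries were grouped by their labels. The members and lists were chosen with earlier results of these data known. Each set was fitted on its own table with edgeR 4.0.16 (TMM, quasi-likelihood test, R 4.3.3) over genes with a mean of at least 1 CPM, with Benjamini-Hochberg adjustment over all genes tested and a threshold of 0.05. The 7 wild-type libraries without RNase III were also fitted together, with a term for the set. Residual degrees of freedom were 3, 2 and 4. DESeq2 1.42.0, other filters and scalings, 1 fit over all 12 libraries and leaving out each library were the alternatives. The 3-read floor lay at 0.117 to 0.191 CPM. Replicates differed by more than counting noise (chi-square per degree of freedom 7.77 to 49.9). The rule for named genes took Mki67, Top2a, Cdk1, Ccnb1, Mcm5 and Rrm2, the 2 genes of each role with the smallest p in a comparison, and up to 3 genes of each pathway list. Other genes named, such as Mcm3, Mcm4, Bub1b and those at the ends of a range, were picked once their values had been seen.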

Additional observations from a re-analysis of the deposited data

How the results depend on the processing

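No paired analysis was possible because the labels give no pairing of libraries between groups. With 1 or 2 libraries a group, counts of called genes moved most when a library was left out, and with 2 or 3 residual degrees of freedom the cause was not tested. For extract against PBS in the RNase III set, the genes called higher ran from 0 to 5, those called lower from 0 to 6 and the median from -0.44 to 0.54. With RNase III against extract, genes called lower ran from 0 to 3 and the median from -0.12 to 0.28, and against PBS the median ran from -0.33 to 0.43. In the knockout set, genes called lower in knockout against wild type ran from 0 to 26 (median -0.91 to -0.59), and genes called higher with extract in wild type from 0 to 27 and in the knockout from 0 to 1 (median -0.24 to 0.065). For the interaction, genes called lower ran from 0 to 20 (median -1.26 to -0.90), and in the pooled fit genes called higher from 1 to 17 (median -0.078 to 0.86). DESeq2 called 2 genes lower with RNase III against extract, 9 higher in wild type of the knockout set, 2 lower in the interaction and 7 higher in the pooled fit. Without a filter 6 were called higher in wild type of the knockout set, and the fit over 12 libraries called 0 lower with RNase III against extract. Signs turned for Mcm5 with RNase III against PBS, to -0.0062 without a filter and -1.4e-05 in the fit over 12 libraries, and for Top2a with RNase III against extract, to 0.020 in the latter. Log2 fold changes whose sign turned without 1 library ran, for extract against PBS, from -0.32 to 0.72 for Cdk1, -1.03 to 0.32 for Kif20a, -0.80 to 0.55 for Mki67, -0.68 to 0.18 for Ncapd2, -0.33 to 1.04 for Rrm2 and -0.31 to 1.22 for Top2a. With RNase III against extract they ran from -0.31 to 0.31 for Cdk1, -0.036 to 0.60 for Mki67, -0.65 to 0.29 for Rrm2 and -0.37 to 0.28 for Top2a. With RNase III against PBS they ran from -0.52 to 0.38 for Anln, -0.30 to 0.74 for Cdk1, -0.24 to 0.89 for Ect2, -0.75 to 0.35 for Foxm1, -0.0093 to 0.0080 for Mcm5, -0.49 to 0.86 for Mki67, -0.62 to 0.25 for Ncapd2, -0.13 to 1.16 for Nusap1, -0.45 to 0.93 for Rrm2 and -0.33 to 1.20 for Top2a. In knockout lung with extract against PBS they ran from -0.24 to 0.62 for Cdk1, -0.25 to 0.43 for Mcm5, -0.61 to 0.017 for Rrm2 and -0.28 to 0.024 for Top2a, and in the pooled fit from -0.28 to 1.03 for Mki67 and -0.17 to 0.69 for Racgap1. Of the values of named genes under settings that kept all libraries, 525 kept their direction and their side of the threshold, 19 passed it, 8 missed it and 3 turned in sign.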
